A study of Mus musculus with 15 samples.

Results

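The genes described here encode the proteins of the mitochondrial respiratory chain and ATP synthase that are made from nuclear DNA. They were chosen by name: protein-coding symbols that begin with Ndufa, Ndufb, Ndufc, Ndufs, Ndufv, Uqcr, Cox4i, Cox5, Cox6, Cox7, Cox8 or Atp5 and that had at least 10 counts in at least 5 libraries. Of 36528 gene identifiers per library, 92 matched the names and 86 of them passed the count minimum. The 86 comprise 37 subunits of complex I, 8 complex III genes, 16 complex IV genes, 17 complex V genes and 8 Ndufaf genes. The Ndufaf proteins are assembly factors of complex I and not subunits of the finished enzyme, so the set is wider than subunits alone. Ndufa4 and its paralogue Ndufa4l2 were counted with complex IV, where the NDUFA4 protein sits despite its name. The names do not reach complex II, cytochrome c or the Cyc1 subunit of complex III. The 6 matching genes left out were Ndufb4b, Ndufb4c, Cox6a2, Cox7b2, Cox8b and Cox8c, which had at most 10 counts in any library; Cox8c had 0 in all 15.

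Poly(A) RNA was sequenced from small intestine of mouse embryos at stage E16.5, with 5 libraries for each of 3 genotypes. All 15 libraries lack Mlkl, the pore-forming executioner of necroptosis. On that background Casp8, which encodes the protease caspase-8, was wildtype, deleted (knockout), or replaced by a knock-in allele whose product carries the C362A change at the catalytic cysteine. The labels mark all C362A tissue as inflamed and all other tissue as normal, so genotype and inflammation cannot be told apart for C362A. The labels name no separate animals or litters, and p-values therefore measure only the spread between these libraries, which may be partly technical. Replicate numbers follow the order of deposition and pair nothing across genotypes.

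The respiratory chain passes electrons from NADH through complex I, and from succinate through complex II, to ubiquinone, complex III, cytochrome c and complex IV, which reduces oxygen to water. Complexes I, III and IV pump protons out of the mitochondrial matrix as they do so, and complex V, the ATP synthase, lets protons flow back to make ATP. Complexes I, III, IV and V mix nuclear subunits with a few subunits encoded in mitochondrial DNA, and several complex IV subunits come as a common form and a form of muscle, testis or low-oxygen tissue. In the intestine, enterocytes are rich in mitochondria and draw on oxidative metabolism for absorption.

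Total counts ran from 31896399 to 38532127 per library, and the 86 genes took between 1.48% and 1.87% of them. Casp8 stood at 19.97 to 24.9 RPKM (reads per kilobase of gene model, scaled for library depth) in wildtype, 3.92 to 5.30 in the knockout and 20.6 to 23.2 in C362A libraries, so the knockout libraries were the low ones, as labelled. Mlkl was at most 0.323 RPKM in any library. The epithelial genes Vil1 and Cdh17 were detected in all 15 libraries, at 165 RPKM or more for Vil1 and 169 or more for Cdh17. Because whole tissue was sequenced, fewer cells of a type and less RNA per cell cannot be told apart.

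Respiratory chain genes rose and dipped together from library to library, and this spread was wider than the distances between the genotype means. Each gene's log2 CPM (counts scaled to the library's total, adjusted by edgeR's TMM factors) were set against its own mean over the 15 libraries. The 86 deviations were then averaged. This mean was -0.28 in knockout replicate 5 and +0.23 in knockout replicate 4, which are the lowest and the highest of all libraries and carry the same genotype. Wildtype libraries lay between -0.08 and +0.20 and C362A libraries between -0.15 and +0.10, so the genotypes overlapped throughout. Knockout replicate 5 was the lowest of the 15 libraries for 65 of the 86 genes, or 75.6%, where it was the lowest for 11.6% of all 18370 genes tested. Knockout replicate 4 was the highest for 43 genes, or 50.0%, against 7.26% of all genes tested. Wildtype replicate 4 was the highest for 27 further genes, or 31.4%, against 17.0%. Genes of the cytosolic ribosome were also lowest in knockout replicate 5, at -0.28, and highest in knockout replicate 4, at +0.29. Genes of the mitochondrial ribosome were lowest in knockout replicate 5, at -0.29, and stood at +0.19 in knockout replicate 4, below +0.25 in C362A replicate 1.

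The median correlation between 2 members over the 15 libraries was 0.72, and 94.3% of pairs were positive. All points of such a correlation share a library, its depth and its scaling, and the value is a description. For 76 of the 86 genes the correlation with the mean of the others was above 0.5. Ndufaf4, an early assembly factor of complex I, was the 1 gene with a negative value. The mean deviation of the assembly factors was farthest from that of complex I in wildtype replicate 4, at -0.01 against +0.19. In C362A replicate 1 it was +0.28 against +0.13, and in wildtype replicate 3 +0.03 against +0.15.

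**Figure D1:**
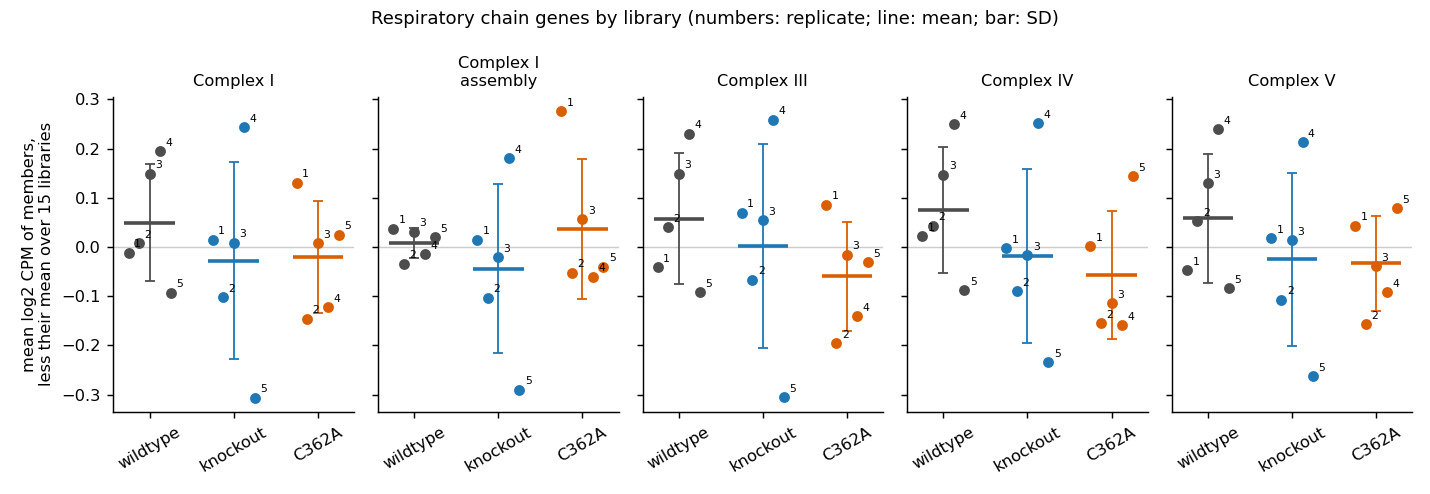
Mean log2 CPM deviation of the members of each complex (vertical axis, each gene set against its mean over 15 libraries) for the 5 libraries of each genotype (horizontal axis); small numbers are replicates, thick lines means and bars the SD. Knockout replicate 5 is the lowest library in every panel, knockout replicate 4 is the highest for complexes I, III and IV, and the 3 genotypes overlap in every panel.

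The promoters of the members were searched for 3 motifs of factors known to act on mitochondrial genes. These were the 10-base palindromic motif of NRF1, spelled out in capitals in the Atp5k promoter, the ETS motif CCGGAAG read by GABP (also called NRF2) and other ETS factors, and an 11-base motif of YY1 that contains ATGGCGG. Both strands were searched, from 250 bases before to 50 bases after the first listed transcription start, in RefSeq promoters on GRCm38.p6, which held 72 of the 86 genes. No 2 of these motifs hold one another. The NRF1 motif was present at 7 of the 72 (9.72%) against 1.32% of 17491 protein-coding promoters. The ETS motif was present at 16 (22.2%) against 11.9%, and the YY1 motif at 5 (6.94%) against 0.972%. Any of the 3 was present at 25 members (34.7%) against 13.7%. All 5 YY1 matches began 10 to 35 bases after the start, at Ndufa9, Ndufaf8, Ndufs4, Ndufs6 and Ndufs7. Of 7 NRF1 matches, 5 began 42 to 162 bases before it. A match is a run of letters in this window and does not show binding. The 17491 promoters were not limited to genes expressed here. Whether matches go with the shared movement of members between libraries was not tested.

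The 250 bases before the start are shown for 4 members, 5′ to 3′ on the strand of the gene, with motif matches in capitals. Atp5k, a small membrane subunit of complex V (minus strand, chr5:108434400-108434649), holds the palindromic NRF1 motif. Cox6a1, the common form of a complex IV subunit (minus strand, chr5:115348959-115349208), holds NRF1 and, near its end, the ETS motif in reverse complement. Uqcrh, the hinge protein of complex III (minus strand, chr4:116075071-116075320), holds the ETS motif in reverse complement near its end. Cox7a1, the muscle form of a complex IV subunit (plus strand, chr7:30183921-30184170), holds none of the 3 and is shown because it had the lowest fold change in C362A tissue among members of 10 RPKM or more.
Atp5k: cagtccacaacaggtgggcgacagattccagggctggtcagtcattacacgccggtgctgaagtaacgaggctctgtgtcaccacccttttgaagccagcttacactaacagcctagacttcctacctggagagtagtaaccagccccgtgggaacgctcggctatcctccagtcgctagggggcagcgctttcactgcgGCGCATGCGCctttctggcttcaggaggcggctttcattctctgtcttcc
Cox6a1: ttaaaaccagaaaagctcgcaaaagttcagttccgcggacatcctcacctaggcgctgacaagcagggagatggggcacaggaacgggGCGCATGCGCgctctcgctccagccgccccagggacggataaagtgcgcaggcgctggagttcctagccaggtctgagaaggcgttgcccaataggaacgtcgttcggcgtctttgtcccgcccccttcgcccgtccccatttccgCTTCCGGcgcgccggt
Uqcrh: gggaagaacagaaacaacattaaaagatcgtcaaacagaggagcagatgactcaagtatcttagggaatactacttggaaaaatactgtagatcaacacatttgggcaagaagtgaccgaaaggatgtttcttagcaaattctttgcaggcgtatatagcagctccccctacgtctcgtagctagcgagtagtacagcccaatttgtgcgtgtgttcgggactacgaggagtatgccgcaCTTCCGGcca
Cox7a1: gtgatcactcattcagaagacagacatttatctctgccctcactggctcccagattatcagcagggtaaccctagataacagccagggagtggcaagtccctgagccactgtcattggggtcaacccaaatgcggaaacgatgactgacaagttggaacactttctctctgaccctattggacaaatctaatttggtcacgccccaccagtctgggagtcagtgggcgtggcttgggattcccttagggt

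Levels were compared between genes per length, as mean RPKM over the 15 libraries. The median member stood at 125 RPKM, 48 of the 86 reached 100, and 9 were under 10. Atp5b, the catalytic beta subunit of ATP synthase, was highest at 1350, followed by Cox4i1 at 973, Atp5g3 at 881, Atp5a1 at 801 and Cox6b1 at 714. In complex III, 7 of 8 genes reached 100 RPKM and Uqcrb, at 46.7, did not. The assembly factors were lowest as a class, with a median of 14.3 RPKM and a range from 6.47 for Ndufaf5 to 43.6 for Ndufaf8.

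**Figure D2:**
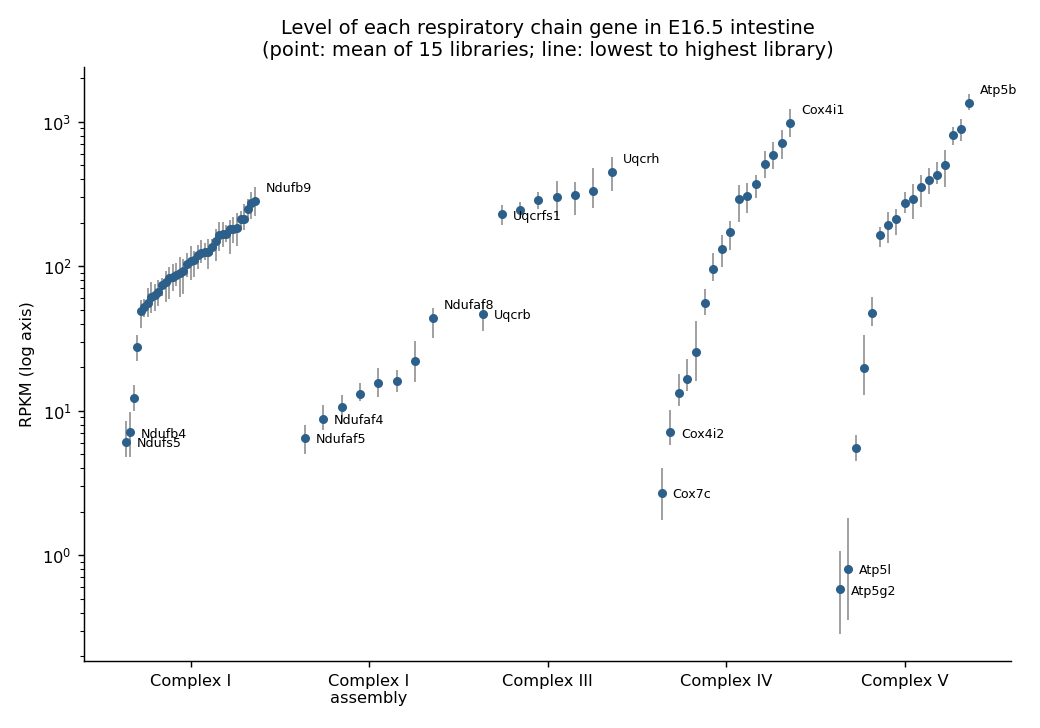
RPKM of each of the 86 genes (vertical log axis), grouped by complex and ordered by level within it; points are means over 15 libraries and lines run from the lowest to the highest library. Most subunits lie near or above 100 RPKM, while Atp5g2 and Atp5l lie under 1 RPKM in the mean.

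A few members that are parts of every assembled enzyme read far below their partners. Atp5l, the g subunit of ATP synthase, stood at 0.80 RPKM, Cox7c of complex IV at 2.70, and Ndufs5 and Ndufb4 of complex I at 6.06 and 7.09. These 4, and those singled out for shared sequence, were chosen after their values were seen. The share of each gene's 50-base windows that recur exactly in the transcripts of a gene elsewhere in the genome was taken from the GENCODE M21 annotation, since the reads were 50 bases long; genes overlapping the member itself were left out. It was 68.5% for Atp5l, spread over 13 other genes of which 12 are pseudogenes, 37.0% for Ndufb4, 23.0% for Cox7c and 21.7% for Ndufs5. A share of 20% or more was found for 5 of the 9 members under 10 RPKM and for 6 of the 76 higher members with a matched transcript. Among the 6, Atp5pb shared 22.5% and stood at 165 RPKM, and Uqcrb shared 43.2% at 46.7. Over 85 members the rank correlation of the 2 measures was -0.26. Only reads that aligned to a single place were counted, per the file headers, so reads that fit another gene equally well are missing from these values and the levels of these genes are uncertain. The windows were sought in annotated transcripts and not in the whole genome. The median gene stood at 108 RPKM in complex I, 152 in complex IV and 275 in complex V. Whether shared sequence accounts for the low levels was not tested. In addition, 28 of the 86 overlap another annotated gene, among them Cox4i2 with Bcl2l1, and the library kit does not mark strand.

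**Figure D3:**
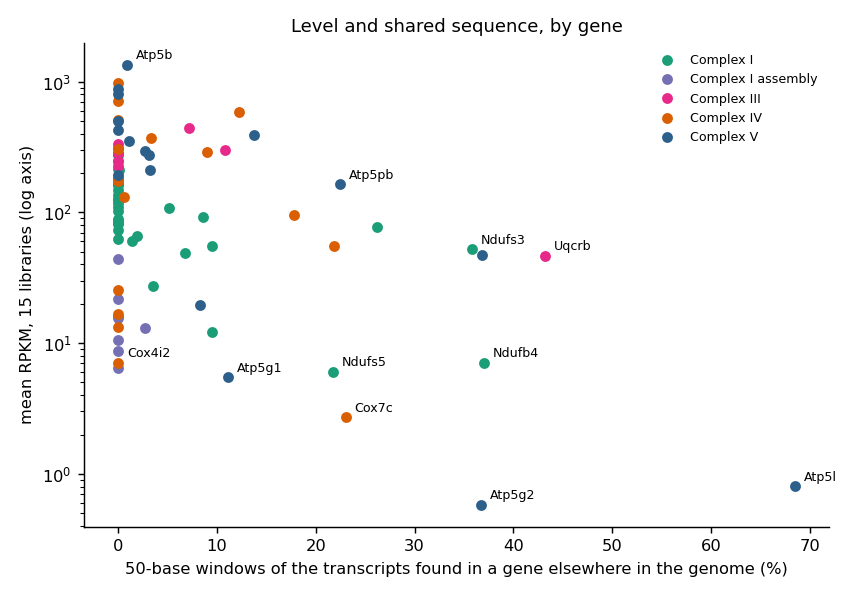
Mean RPKM over 15 libraries (vertical log axis) against the percentage of a gene's 50-base windows found in a gene elsewhere in the genome (horizontal axis), 1 point per member, coloured by complex. Atp5l, at 68.5% shared, lies at 0.80 RPKM, while Uqcrb, at 43.2%, lies at 46.7.

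Across genotypes, no respiratory chain gene passed the test. In C362A against wildtype, 0 of 86 members were called by edgeR's quasi-likelihood test at a Benjamini-Hochberg adjusted p under 0.05, where 0.0817% of the 18370 genes were called (15 higher, 0 lower). In the knockout against wildtype 0 members were called against 0.0381% of all genes, and in C362A against the knockout 0 against 0.0109%. A test for any difference among the 3 genotypes called 0 members, against 0.0708%. DESeq2 and limma also called 0 members in each comparison of 2 genotypes. At an unadjusted p under 0.05, members numbered 2, 0 and 1 in the 3 comparisons (Atp5g2 and Cox7a1, none, and Cox7a1), where the shares of all genes were 15.9%, 2.43% and 13.9%. The members concerned were lower, as were 7.8%, 1.23% and 7.41% of all genes at that p. The smallest adjusted p of edgeR among members was 0.285, 1 and 0.347 in turn. No member had genotypes whose libraries did not overlap, a state that 0.299% of all genes showed in the lower and 0.86% in the higher direction for C362A against wildtype. These shares were 0.332% and 0.37% for the knockout against wildtype, and 1.74% and 1.11% for C362A against the knockout.

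The members' fold changes were small and mostly below 0 in both comparisons with wildtype, which share the wildtype libraries. The median log2 fold change was -0.08 in C362A against wildtype, with 72 of 86 members negative, where 48.6% of all genes were negative and the median of all was 0.01. It was -0.07 in the knockout against wildtype, with 71 of 86 negative against 51.8% of all genes. In C362A against the knockout it was 0.00, with 44 of 86 negative against 46.8%. The standard error of a single member's fold change had a median of 0.10. Among the 77 members with a mean of 10 RPKM or more, fold changes in C362A against wildtype ran from -0.51 for Cox7a1 to 0.17 for Ndufaf2. Scaling by library totals kept the negative medians against wildtype and moved the median of C362A against the knockout to 0.04.

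Single libraries moved the median of the knockout against wildtype about as far as that genotype did. Runs of libraries moved this median farther, and its sign differed between them. The median of C362A against wildtype stayed below 0 with any 1 library left out. It ran from -0.12 without C362A replicate 1, with 77 of 86 negative, to -0.05 without C362A replicate 2, with 60 negative. Of all genes, 49.9% and 48.6% were negative in these fits. Without knockout replicate 5, the median of the knockout against wildtype was -0.01, with 46 of 86 negative, where 50.3% of all genes were negative. Without knockout replicate 4 it was -0.15, with 82 negative against 53.3% of all genes, and 17 members (19.8%) at an unadjusted p under 0.05 in edgeR against 3.64% of all genes, none of them passing adjustment. The label identifiers fall into 2 runs of consecutive numbers, with 2 libraries per genotype in the first and 3 in the second, and the labels do not call these batches. In the first run alone the knockout median was -0.26 with 85 of 86 members negative against 48.7% of all genes, and in the second it was 0.05 with 17 negative against 48.9%. For C362A against wildtype the values were -0.13 and -0.05, and for C362A against the knockout 0.13 and -0.10. With the run as a block in the fit, the 3 medians were -0.08, -0.07 and 0.00.

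**Figure D4:**
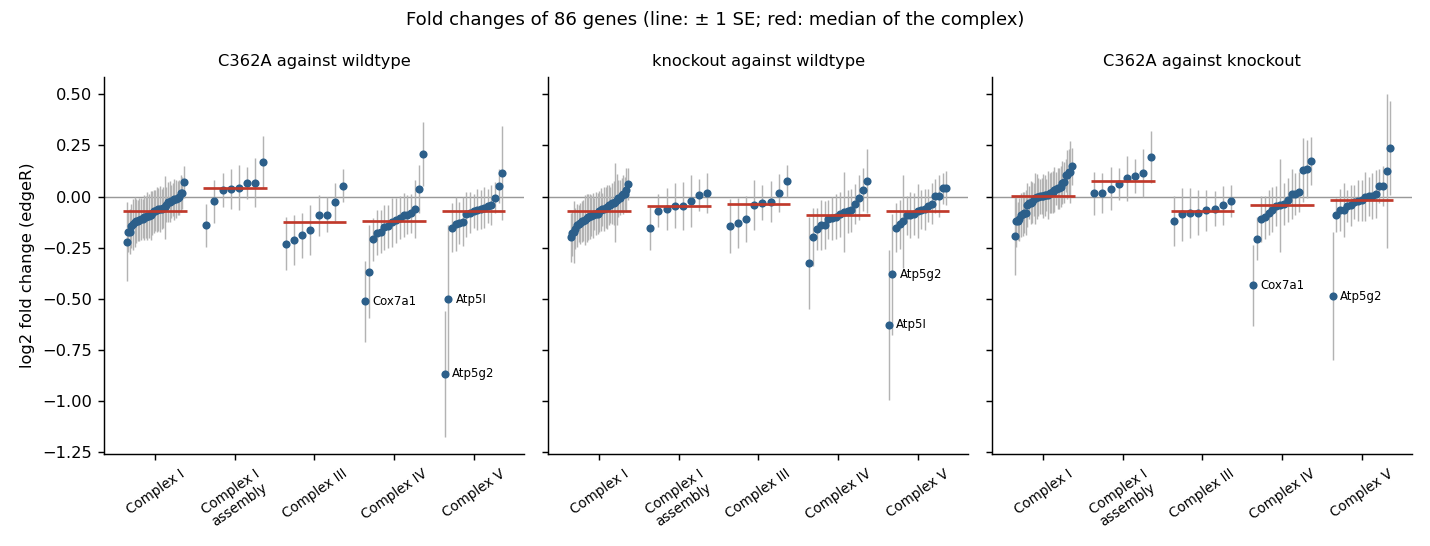
Log2 fold change of each of the 86 members (vertical axis) by complex for 3 comparisons of genotypes; grey lines span 1 SE to either side and red lines are medians. Nearly all subunits lie within 0.25 of 0. In the panel of C362A against wildtype, Cox7a1, Atp5g2 and Atp5l are the members farthest below 0.

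Shorter members had lower fold changes than longer ones in both comparisons with wildtype. Against gene model length, the rank correlation of the log2 fold change across the 86 genes was 0.46 for C362A and 0.51 for the knockout, and 0.03 for C362A against the knockout. Genes are not independent replicates, and both wildtype comparisons rest on the same 5 libraries. The 53 members under 1 kb had a median of -0.10 in C362A against wildtype with 48 negative, and the 33 longer ones -0.03 with 24 negative. Length also went with the spread between libraries, at a rank correlation of -0.59 with the coefficient of variation. Its part in the fold changes was not tested.

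In complex I, 34 of 37 subunits were negative in C362A against wildtype, at a median of -0.07, and 0 passed the test. Without C362A replicate 1 the median was -0.12, with 36 negative. The 7 nuclear core subunits, which carry the flavin and iron-sulphur centres, had a median of -0.02 with 5 negative, and the 30 accessory subunits -0.09 with 29 negative. Ndufb9, a membrane-arm accessory subunit and the most abundant of complex I, read 261, 287, 313, 350 and 265 RPKM in wildtype, 288, 263, 289, 329 and 224 in the knockout and 300, 247, 271, 253 and 295 in C362A. The genotypes overlapped, at a log2 fold change of -0.11 (SE 0.10, edgeR adjusted p = 0.577) in C362A against wildtype. Ndufa3, another abundant accessory subunit, ran from 238 to 318 RPKM in wildtype and from 243 to 298 in C362A, at -0.07 (SE 0.10, adjusted p = 0.74). Ndufs1, the largest core subunit, stood at 62.4, 75.0, 75.1, 76.9 and 69.1 RPKM in wildtype, 72.7, 72.9, 83.0, 71.3 and 73.9 in the knockout and 80.7, 67.7, 82.7, 77.1 and 67.7 in C362A libraries. Its log2 fold change in C362A against wildtype was 0.07 (SE 0.08, edgeR adjusted p = 0.656), the highest of complex I, and the 3 genotypes overlapped. Ndufs1 was also among the steadiest members, with a coefficient of variation of 7.84% over the 15 libraries.

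Ndufa1, an X-linked accessory subunit needed for assembly of the membrane arm, had the lowest complex I fold change of the knockout, -0.20 (SE 0.12, edgeR adjusted p = 1). Its wildtype libraries read 86.6, 91.8, 99.2, 115 and 84.1 RPKM, its knockout libraries 83.1, 77.7, 84.7, 108 and 60.8, and its C362A libraries 96.1, 78.8, 97.2, 83.7 and 90.5. The knockout range contained the whole wildtype range except wildtype replicate 4. Ndufa11, which lies where complex I meets complex III, was at -0.16 (SE 0.10) in the knockout, and Ndufb6, of the membrane arm, at 0.15 (SE 0.09, edgeR adjusted p = 0.442) in C362A against the knockout. Ndufs6, a zinc-binding accessory subunit, was highest in C362A replicate 1 at 112 RPKM and lowest in knockout replicate 5 at 63.7. Its log2 fold change was -0.06 (SE 0.11) in C362A and -0.18 (SE 0.11) in the knockout against wildtype.

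The assembly factors were the 1 class with a median above 0 in C362A against wildtype, 0.04, with 6 of 8 positive. All 8 were positive in C362A against the knockout, at a median of 0.07, and 0 passed the test. Without C362A replicate 1 the median was -0.02 against wildtype with 3 of 8 positive, and 0.02 against the knockout with 5 of 8 positive. The class's mean deviation was +0.28 in that library and -0.05, +0.06, -0.06 and -0.04 in the other C362A libraries. Ndufaf2, an assembly chaperone and paralogue of the accessory subunit Ndufa12, stood at 22.3, 21.4, 20.1, 19.4 and 22.4 RPKM in wildtype, 22.1, 18.5, 20.4, 27.3 and 15.7 in the knockout and 30.1, 22.9, 23.0, 22.4 and 20.4 in C362A libraries. C362A replicate 1 was the highest of all, and the other C362A libraries lay within or just above the wildtype range. The log2 fold change was 0.17 (SE 0.13, edgeR adjusted p = 0.482) against wildtype and 0.19 (SE 0.13, adjusted p = 0.477) against the knockout. Ndufaf8, an assembly factor that acts with Ndufaf5, was the most abundant of the class at 43.6 RPKM and went the other way from wildtype, at -0.14 (SE 0.10, adjusted p = 0.482).

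Complex III genes were negative in 7 of 8 cases in C362A against wildtype, at a median of -0.13, and in 8 of 8 against the knockout, at -0.07. Uqcrh, the most abundant of them and the hinge protein that docks cytochrome c1, read 455, 448, 501, 524 and 406 RPKM in wildtype, 483, 423, 463, 571 and 330 in the knockout and 417, 372, 390, 390 and 515 in C362A libraries. Of the C362A libraries, 4 were below wildtype replicates 1 to 4, and replicate 5 was above 3 of these 4. The log2 fold change was -0.16 (SE 0.12, edgeR adjusted p = 0.492). Uqcrq, a ubiquinone-binding subunit, had the lowest fold change of the complex, -0.23 (SE 0.13, adjusted p = 0.368). It read from 293 to 475 RPKM in wildtype and from 267 to 347 in C362A, so the groups overlapped. Uqcr11, a small membrane subunit, was at -0.21 (SE 0.12, adjusted p = 0.378), with 221 to 390 RPKM over the 15 libraries. Uqcrc1, a core protein of the complex, had the fold change nearest 0 in C362A, -0.03 (SE 0.09), and 0.02 (SE 0.09) in the knockout.

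Complex IV had 14 of 16 genes negative in C362A against wildtype, at a median of -0.12, and 14 of 16 in the knockout, at -0.09. Cox4i1, the most abundant of them and the common form of subunit 4, stood at 926, 988, 1097, 1166 and 825 RPKM in wildtype, 1035, 927, 1002, 1230 and 787 in the knockout and 1030, 825, 948, 863 and 946 in C362A. Its log2 fold change was -0.12 (SE 0.11, edgeR adjusted p = 0.596) in C362A and -0.01 (SE 0.11) in the knockout. Cox6b1, which lies where 2 copies of complex IV meet in the dimer, and Cox8a, the common form of subunit 8, read -0.10 (SE 0.10) and -0.18 (SE 0.11) in C362A against wildtype. Cox6a1 read -0.15 (SE 0.11) there, and the zinc-binding subunit Cox5b -0.15 (SE 0.10) in C362A and -0.16 (SE 0.10) in the knockout. Cox7b, a small membrane subunit, was at -0.21 (SE 0.11, adjusted p = 0.333), and Cox7a2l, which joins complexes III and IV into supercomplexes, at -0.17 (SE 0.11, adjusted p = 0.397) against wildtype and -0.21 (SE 0.11, adjusted p = 0.38) against the knockout.

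Among members of 10 RPKM or more, Cox7a1 had the lowest fold change in both comparisons of C362A. It encodes the form of subunit 7a that is typical of heart and skeletal muscle, beside the common form Cox7a2. Its wildtype libraries stood at 21.2, 26.3, 32.6, 42.0 and 22.5 RPKM and its knockout libraries at 29.1, 27.2, 26.1, 31.6 and 22.7. Its C362A libraries stood at 16.1, 17.1, 17.8, 18.7 and 31.2. C362A replicates 1 to 4 lay below all 10 libraries of the other genotypes, and replicate 5 lay among the upper ones. This split sets replicate 5 apart after its value was seen. How many of all genes show the same split was not counted. The log2 fold change was -0.51 (SE 0.20, edgeR adjusted p = 0.285) against wildtype and -0.43 (SE 0.20, adjusted p = 0.347) against the knockout. Without C362A replicate 5 it was -0.73 (SE 0.17, adjusted p = 0.0236) against wildtype and -0.65 (SE 0.17, adjusted p = 0.0441) against the knockout. In that fit 1807 and 805 genes of the whole table were called, or 9.76% and 4.35%, and 2 and 1 of the 86 members. The second run of identifiers also lacks C362A replicate 5, so a fit within it is no separate support. In that run alone, Cox7a1 (-0.78, SE 0.20, adjusted p = 0.0256) and Cox7c (-0.85, SE 0.24, adjusted p = 0.0369) were called lower in C362A against wildtype. These were 2 of 86 members, where 13.5% of all genes were called. Cox7c rests on 27 to 61 counts per library, and 23.0% of its 50-base windows recur in genes elsewhere. For Cox7a2 the C362A libraries read 330, 261, 292, 283 and 333 RPKM, and 3 of these 5 lay within the wildtype range of 289 to 356. Its log2 fold change was -0.09 (SE 0.11, edgeR adjusted p = 0.676).

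Enterocyte markers were also lower in C362A replicates 1 to 4 than in replicate 5. All 15 of a list of 15 were tested and none was at 0 in any library. Their mean log2 deviation was -0.86, -0.33, -0.42 and -0.43 in C362A replicates 1 to 4 and +0.10 in replicate 5. In wildtype it was highest in replicate 4, at +0.80, which was also the highest library for Cox7a1. In the knockout it was lowest in replicate 4, at +0.11, although that was the highest knockout library for Cox7a1. Their summed RPKM ran from 6427 to 14525 in C362A, from 8659 to 27583 in wildtype and from 14647 to 17256 in the knockout. Striated muscle markers, of which 11 of 12 were tested and Myh6 was at 0 in at least 1 library, summed to 53.7 to 77.6 RPKM in C362A, 57.3 to 74.0 in wildtype and 56.2 to 73.7 in the knockout. Neutrophil markers, all 7 tested, none at 0, summed to 11.8 to 116 RPKM in C362A with replicate 5 the lowest, to 9.35 to 44.2 in wildtype and to 13.8 to 79.7 in the knockout. Fibroblast markers, all 7 tested, none at 0, deviated by +0.19, +0.20, +0.25 and +0.35 in C362A replicates 1 to 4 and by -0.10 in replicate 5. They summed to 1089 to 1606 RPKM in C362A, 901 to 1451 in wildtype and 1006 to 1530 in the knockout. Proliferation markers, all 8 tested, none at 0, deviated by +0.42, +0.10, +0.30 and +0.28 in replicates 1 to 4 and by -0.29 in replicate 5, and summed to 213 to 358 RPKM in C362A, 193 to 282 in wildtype and 233 to 272 in the knockout. Erythroid and hepatocyte markers were also lowest among the C362A libraries in replicate 5, at -1.12 and -0.89. The part of these cell types and of proliferation in the Cox7a1 values was not tested.

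Tissue-restricted forms made up little of each complex IV family. Cox7a1 contributed 7.59% of the RPKM of Cox7a1 and Cox7a2 together over the 15 libraries: 8.18% ± 1.59 (SD, n = 5) in wildtype, 8.32% ± 0.599 in the knockout and 6.26% ± 1.43 in C362A. Ndufa4l2, a paralogue of Ndufa4 known to be induced by low oxygen, contributed 8.86% of its pair, Cox6b2 of testis 1.85%, and Cox4i2, the form of lung and low-oxygen tissue, 0.726%. The muscle forms Cox6a2 and Cox8b were at 0.0413% and 0.0296% of their families, from at most 10 and 5 counts in any library. Cox4i2 read 5.76, 7.19, 7.24, 6.64 and 6.25 RPKM in wildtype, 5.89, 5.79, 6.51, 10.1 and 6.59 in the knockout and 8.48, 5.88, 6.80, 8.01 and 8.98 in C362A. Of the C362A libraries, 3 exceeded every wildtype library, at a log2 fold change of 0.21 (SE 0.16, edgeR adjusted p = 0.494). Ndufa4l2 was at 0.04 (SE 0.12, adjusted p = 0.89), with 22.8 RPKM in C362A replicate 5 as its highest library.

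**Figure D5:**
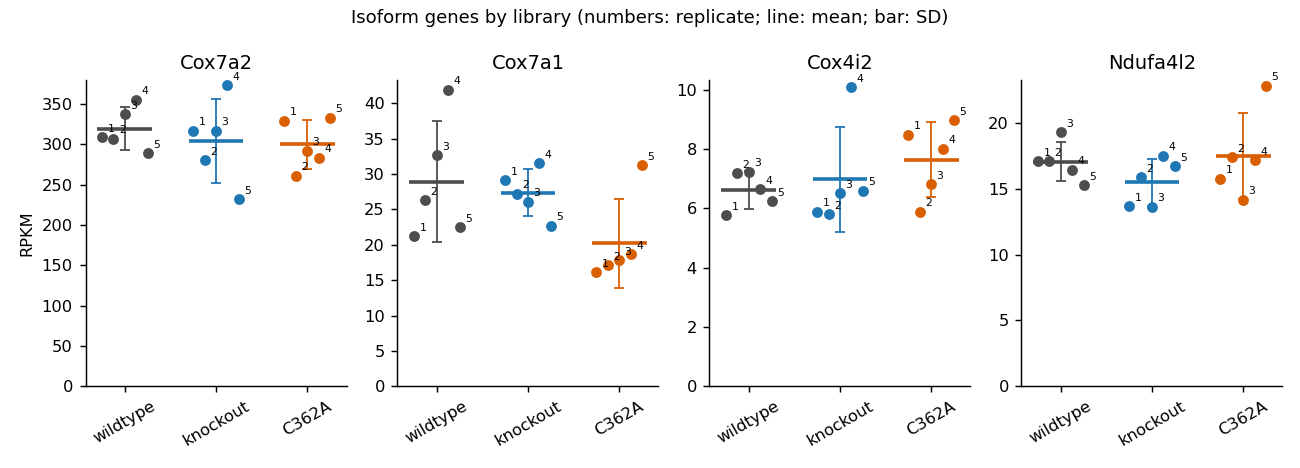
RPKM of the common form Cox7a2 and of the restricted forms Cox7a1, Cox4i2 and Ndufa4l2 (vertical axes from 0) in the 5 libraries of each genotype; small numbers are replicates, thick lines means and bars the SD. C362A replicates 1 to 4 sit at 16.1 to 18.7 for Cox7a1, below the other genotypes, and replicate 5 at 31.2.

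In complex V, 15 of 17 genes were negative in C362A against wildtype at a median of -0.07, and the 5 genes of the catalytic head had a median of -0.05. Atp5b read 1214, 1344, 1444, 1445 and 1221 RPKM in wildtype, 1313, 1273, 1407, 1479 and 1201 in the knockout and 1560, 1258, 1479, 1329 and 1279 in C362A. The genotypes overlapped, and its log2 fold change was 0.05 (SE 0.08, edgeR adjusted p = 0.772) in C362A and 0.00 (SE 0.08) in the knockout. Atp5a1, the alpha subunit of the head, was the steadiest of all members, with a coefficient of variation of 7.20%, and differed by -0.01 (SE 0.08) in C362A against wildtype.

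The membrane ring of ATP synthase is built from 1 mature protein, subunit c, that 3 genes encode. Atp5g3 held 99.3% of their summed RPKM, Atp5g1 0.622% and Atp5g2 0.0659%, in counts of singly aligning reads. Of their 50-base windows, 0% for Atp5g3, 11.1% for Atp5g1 and 36.7% for Atp5g2 recur in genes elsewhere. The small shares of Atp5g1 and Atp5g2 are therefore uncertain. Atp5g2 had the smallest p of the members beside Cox7a1, at RPKM values of 0.542, 1.07, 0.802, 0.75 and 0.609 in wildtype, 0.715, 0.475, 0.571, 0.422 and 0.695 in the knockout and 0.295, 0.326, 0.283, 0.429 and 0.720 in C362A. These rest on 7 to 29 counts per library, and 36.7% of its 50-base windows recur in genes elsewhere. Its log2 fold change was -0.87 (SE 0.31, edgeR adjusted p = 0.285) in C362A against wildtype, and -1.17 (SE 0.30, adjusted p = 0.0316) without C362A replicate 5. Atp5g3 stood at 809, 882, 987, 1041 and 820 RPKM in wildtype and at 954, 795, 938, 815 and 841 in C362A, a log2 fold change of -0.06 (SE 0.09, adjusted p = 0.752). Atp5l, on 7 to 29 counts, was at -0.50 (SE 0.37) in C362A and -0.63 (SE 0.37) in the knockout, and wildtype replicate 4 at 1.81 RPKM was its highest library. Atp5md, a small membrane subunit also known as DAPIT, varied widely, from 12.9 to 33.5 RPKM over the 15 libraries.

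The subunits encoded in mitochondrial DNA gave lower medians than the nuclear genes in both comparisons of C362A. Of 13 such genes 10 could be tested, and 9 of them were negative in C362A against wildtype at a median of -0.20, with 0 called. In C362A against the knockout 10 of 10 were negative at a median of -0.30, with 0 called, beside 0.00 for the nuclear members. In the knockout against wildtype, 7 of 10 were positive, at 0.10. The mean log2 deviation of the 10 ran from -0.26 to +0.29 in wildtype libraries and from -0.15 to +0.25 in knockout libraries. In C362A libraries it ran from -0.32 to +0.03, so the genotypes overlapped. mt-Nd4, a proton-pumping subunit of complex I, stood at 983 ± 174 RPKM (SD, n = 5) in wildtype, 1055 ± 139 in the knockout and 788 ± 111 in C362A. Its log2 fold change in C362A was -0.32 (SE 0.13, edgeR adjusted p = 0.285) against wildtype and -0.42 (SE 0.13, adjusted p = 0.317) against the knockout. mt-Co2, mt-Co3 and mt-Atp6 had 9 to 82 counts per library where mt-Nd1 had 57826 to 106800, so these genes read nearly empty in the deposited counts of singly aligning reads. The difference between nuclear and mitochondrial genes was not tested.

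Neighbouring pathways were described by the same counts, and none had a gene called in any comparison with all 15 libraries. All 17 fatty acid oxidation genes were negative in C362A, at a median of -0.10 against wildtype and -0.16 against the knockout, while 15 of 17 were positive in the knockout against wildtype, at 0.04. Acaa2, the last thiolase of the cycle, was at -0.38 (SE 0.15, edgeR adjusted p = 0.285) in C362A against wildtype. Beside them, enterocyte markers were negative in 15 of 15 cases in C362A against wildtype, at -0.57, and in 14 of 15 against the knockout, at -0.59. Fibroblast, proliferation and smooth muscle markers were positive in 7 of 7, 8 of 8 and 8 of 8 cases against wildtype, at 0.25, 0.32 and 0.20. Macrophage markers were positive in 6 of 7 cases against wildtype, at 0.24. Of these, 1 was called higher (edgeR adjusted p = 0.0361), where 0.0817% of all genes were called. Neutrophil markers were positive in 7 of 7 cases against wildtype, at 1.04, with 0 called and a lowest count of 2. The part of these cell types and of proliferation in the pathway values was not tested.

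Of 16 glycolysis genes 14 were positive in C362A against wildtype, at a median of 0.16, and hexokinase Hk1 stood at 0.29 (SE 0.08, edgeR adjusted p = 0.285). Without C362A replicate 5 the median was 0.08, with 12 of 16 positive and 2 called, where 9.76% of all genes were called. In that fit 3 of 75 cytosolic ribosomal genes and 4 of 18 regulators of mitochondrial biogenesis were also called. So were 4 of 15 enterocyte, 4 of 8 proliferation, 2 of 7 fibroblast and 2 of 8 smooth muscle markers, and 0 of 8 erythroid markers. Against the knockout, 4.35% of all genes were called. There the calls were 1 of 78 mitochondrial ribosomal genes, 1 of 75 cytosolic ribosomal genes and 1 of 10 genes of mitochondrial DNA. In the knockout against wildtype 10 of 16 glycolysis genes were positive, at 0.01. Genes of the tricarboxylic acid cycle and pyruvate dehydrogenase had 9 of 17 negative in C362A, at -0.02, and 16 of 17 positive in the knockout, at 0.03.

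In the knockout against wildtype, 66 of 78 genes of the mitochondrial ribosome were negative, at -0.05, and 61 of 75 of the cytosolic ribosome, at -0.06, beside 71 of the 86 members. In C362A against wildtype, 43 of 78 mitochondrial ribosomal genes were positive, at 0.01, while 60 were negative, at -0.06, without C362A replicate 1. Cytosolic ribosomal genes had 45 of 75 negative, at -0.04, and 62 negative at -0.10 without that library. Complex II and cytochrome c genes, the chain's remaining parts, had 5 of 6 negative in C362A, at -0.06, and 4 of 6 in the knockout, at -0.01. Assembly factors with other names had 28 of 42 negative at -0.04 and 33 of 42 at -0.03 in turn. Regulators of mitochondrial biogenesis had 12 of 18 positive in both, at 0.09 and 0.01. Among them Esrra, a nuclear receptor that drives respiratory chain genes, was at -0.39 (SE 0.12, edgeR adjusted p = 0.285) and Polg, the mitochondrial DNA polymerase, at -0.34 (SE 0.12, adjusted p = 0.285) in C362A against wildtype.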

How the data were processed

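Poly(A) RNA libraries (unstranded kit, single-end reads of 50 bases, per the labels' protocols) were aligned with GSNAP to GRCm38, per the submitters' processing notes; no label or header names the annotation. Per the file headers, each file gives raw counts of uniquely aligning reads per gene, which entered all tests, and RPKM values that the authors adjusted by size factors, which were used for levels. Identifiers were matched to RefSeq symbols, 31049 of 36528; unnamed identifiers held 1.69% to 1.96% of counts. Counts of 15 libraries were fitted together in edgeR 4.0.16 (R 4.3.3; TMM, filterByExpr, robust quasi-likelihood test), leaving 18370 genes for Benjamini-Hochberg adjustment. DESeq2 1.42.0 and limma 3.58.1 (log2(RPKM + 1)) were alternatives, beside other scalings, filters and left-out libraries. CPM deviations used log2(CPM + 0.5). Scripts were tested on simulated data. Shared sequence used GENCODE M21, promoters RefSeq GRCm38.p6.

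The members and gene lists were chosen with earlier results of these data known. The members to name were the 2 most abundant of each complex, the tissue isoforms and the 5 with the smallest p in each comparison, and in the gene lists the 2 genes with the smallest p in C362A against wildtype; some of these are given by fold change or range alone or, in the lists, left out. Others named were chosen after their values were seen. Libraries of 31896399 to 38532127 counts leave Atp5g2 and Atp5l, the members under 1 RPKM, with 7 to 29 counts.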

Additional observations from a re-analysis of the deposited data

Results flagged for a closer look

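In 102 groups of 5 libraries, 6 had a library whose gap to the nearest of the others was large against the group's range by Dixon's criterion, which chance meets in about 5% of groups. Cox7a1 was highest in C362A replicate 5 at 31.2 RPKM, with the others between 16.1 and 18.7. Cox4i2 was highest in knockout replicate 4 at 10.1 RPKM, with the others between 5.79 and 6.59, and Atp5g1 was highest in the same library at 6.80, with the others between 4.88 and 5.34. Atp5g1 was lowest in wildtype replicate 1 at 4.50 RPKM, with the others between 6.04 and 6.19. Ndufaf2 and Ndufs6 were both highest in C362A replicate 1, at 30.1 RPKM against 20.4 to 23.0 and at 112 RPKM against 85.6 to 92.4.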

How the results depend on the processing

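No paired analysis was possible because the labels give no replicate numbers. With 0 members called in each comparison, this count held under other scalings, filters, DESeq2, limma and a block for the run of identifiers; leaving out 1 library gave 0 to 2 in C362A against wildtype and 0 to 1 in C362A against the knockout, the higher value without C362A replicate 5 in both. Over all genes, calls in C362A against wildtype numbered 54 with DESeq2, 7 at an adjusted p under 0.01 and 7 to 1807 with 1 library left out (1807 without C362A replicate 5). In the knockout against wildtype they numbered 13 with DESeq2, 1 from the 2 groups alone, 1 under 0.01 and 1 to 8 with 1 library left out. In C362A against the knockout they numbered 26 with DESeq2, 5 with limma, 4 from the 2 groups alone and 2 to 805 with 1 library left out (805 without C362A replicate 5). Chosen after seeing the data, the fits within 1 run gave a knockout median of -0.26 in the first, and called Cox7a1 and Cox7c lower in C362A against wildtype in the second, where 2478 of 18343 genes (13.5%) were called. The second run also lacks C362A replicate 5. By CPM, which is not per length, Cox7a1 was 3.84% of its pair, Ndufa4l2 6.98%, Cox6b2 2.25% and Atp5g1 0.713%. Of 2088 recomputed fold changes of 29 members, 69 differed in sign, none of them called.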
